A study of Homo sapiens with 6 samples.

Results

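Naive cells made with AICAR were compared with naive cells made with constitutively active p38 (CA-p38), as 2 libraries of AICAR naive cells against 1 library of CA-p38 naive cells. These are 3 of the 6 bulk RNA-seq libraries of the series, and each was assigned to its group by its label. The other 3 libraries, used as references, were 1 of naive cells made with valproic acid (VPA) and 1 of each parental primed line. All cells were human embryonic stem cells carrying EOS, a GFP reporter driven by the distal enhancer of OCT4. The labels call the line H1 and the text of the study calls it H9.

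AICAR naive cells came from the EOS line, treated with the AMP analogue AICAR for 14 days, then for a shorter time at a lower dose, and collected 14 or 15 passages after day 14. Which library is which passage is not stated, and the libraries are called AICAR 1 and AICAR 2. CA-p38 naive cells came from an EOS line that also carried a doxycycline-inducible CA-p38 vector with rtTA and mCherry. The line was a pool sorted for mCherry and is not stated to be 1 clone. They were collected 12 passages after day 7 of the induction with doxycycline, and on how many of those days doxycycline was given is not stated the same way throughout the study. Neither AICAR nor doxycycline was given through the later passages. VPA naive cells came from the EOS line, collected 12 passages after day 9 of the VPA induction. All naive cells were kept in PXGL medium, which holds inhibitors of MEK, tankyrase and protein kinase C together with LIF, and were sorted for CD75 and SUSD2 before collection. The labels place naive cells on mouse embryonic fibroblast feeders, while the text of the study says that CA-p38 cells were moved to culture without feeders after some time. Whether feeders were present in each culture at collection is not stated. The primed references were the EOS line and the CA-p38 EOS line before conversion. The mode of induction, the carried vector, the days of induction, the passage number and possibly the feeders differed together between AICAR and CA-p38 cells and cannot be told apart. With 1 CA-p38 library, its spread was assumed to equal that between the AICAR libraries, and p-values measure only the spread between libraries that may be passages of 1 culture.

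AMPK is the kinase that senses a fall in cellular energy, and AICAR is taken up and phosphorylated to a mimic of its activator AMP. The p38 kinases, of which p38 alpha (MAPK14) is the best known, are stress-activated kinases that lie downstream of AMPK in some settings. Naive human stem cells resemble the epiblast before implantation. Cultures of them hold a small share of 8-cell-like cells, which transcribe genes of the first wave of embryonic genome activation, such as ZSCAN4 and the TRIM43, TRIM49 and MBD3L families. Many of those genes are targets of the double-homeobox factor DUX4.

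The main difference was in the genes of 8-cell-like cells, which were lower in the CA-p38 library than in both AICAR libraries. Of the 21 members of the list found, 11 were past the edgeR threshold and lower (against 0.166% of the 30043 genes tested), and none was higher. In fits of all 6 libraries that count was 1 with 5 groups and 0 with both primed libraries as 1 group. Near-identical copies on the list can share reads, and the lists were chosen with earlier results of these data known. The members are therefore not separate observations, and the share is given as a description. Their summed level was 101 CPM (TMM-scaled counts per 1000000) in AICAR 1, 147 CPM in AICAR 2 and 42.4 CPM in CA-p38. It was 37.1 CPM in VPA naive cells, and 2.41 and 2.07 CPM in the primed EOS and CA-p38 lines. The CA-p38 and VPA libraries therefore lay side by side, below both AICAR libraries and above both primed ones. In bulk RNA, fewer cells of a type and less RNA per cell cannot be told apart.

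In several families lower in CA-p38, promoters held the letters TAANNNAATCA, a loose form of the sequence bound by DUX4. Windows around it are shown to let the families be compared, from RefSeq on GRCh38.p14, with the match in capitals and each sequence read 5′ to 3′ on the strand given. The H3Y1 window is chr5:17655868-17655918 (minus strand), and the TAF11L11 window is chr5:17604111-17604161 (plus). The TRIM49B window is chr11:49028654-49028704 (plus), and the TRIM49D1 window is chr11:89920572-89920622 (minus). The MBD3L2 window is chr19:7049234-7049284 (minus), and the MBD3L3 window is chr19:7058700-7058750 (plus).
H3Y1: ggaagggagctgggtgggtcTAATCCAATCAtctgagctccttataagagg
TAF11L11: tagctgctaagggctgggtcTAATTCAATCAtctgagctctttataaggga
TRIM49B: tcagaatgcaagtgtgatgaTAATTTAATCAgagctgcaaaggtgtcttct
TRIM49D1: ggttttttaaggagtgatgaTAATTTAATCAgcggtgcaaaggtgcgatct
MBD3L2: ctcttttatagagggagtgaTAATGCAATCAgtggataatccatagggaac
MBD3L3: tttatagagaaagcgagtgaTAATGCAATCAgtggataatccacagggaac

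The windows of TRIM49D2 and MBD3L2B were identical to those of TRIM49D1 and MBD3L2, and those of MBD3L4 and MBD3L5 to that of MBD3L3. The match lay 39 bases before the gene start in H3Y1 and 42 in TAF11L11, and 139 in TRIM49B, counted from the RefSeq start. In GENCODE the genes TRIM49B, TRIM49D1 and MBD3L3 begin further upstream, so these windows lie inside them. Searched on both strands of promoters running from 250 bases before to 50 bases after the start, the letters occurred in 303 of 27305 genes (1.11%). Among the genes set apart and lower in CA-p38 (defined below with the fold rule), 33 had a promoter in the table and 11 held the letters. Without the TRIM49, MBD3L, TAF11L and H3Y families, 1 of 21 did, and of 10 genes set apart and higher in CA-p38, 0 did. Family members share sequence by descent, so their matches are not separate observations. The promoters of ZSCAN4, CCNA1 and SLC34A2 had no match in this window. A match is a description of letters and not a site of binding.

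Genes were called in 2 ways. First, the raw counts of the 3 libraries were tested by edgeR (quasi-likelihood, p adjusted after Benjamini and Hochberg). Of 30043 genes tested, 19 (0.0632%) were past the adjusted threshold of 0.05 and higher in CA-p38, and 50 (0.166%) were lower. At an unadjusted p under 0.05, 717 (2.39%) were higher and 757 (2.52%) lower. The fold rule set a gene apart where the CA-p38 value lay outside the AICAR range by at least 2-fold, and by more than the gap between the AICAR libraries, on log2(CPM + 0.5). Of 18979 genes averaging 1 CPM or more over the 3 libraries, it set apart 15 higher (0.079%) and 51 lower (0.269%). Both ways called the same 34 genes, 5 higher and 29 lower.

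The edgeR calls depended on how the spread was estimated. With all 6 libraries fitted and both primed libraries taken as replicates of 1 group, 0 genes passed, with 1232 at an unadjusted p under 0.05. In that fit, leaving out AICAR 1 left 1 gene and leaving out AICAR 2 left 0. The other tools are given with the processing alternatives, and the fold rule needs no spread beyond the AICAR gap. Of the 18979 genes, 265 differed at least 2-fold between AICAR 1 and AICAR 2, 283 between CA-p38 and AICAR 1, and 235 between CA-p38 and AICAR 2. The root mean square log2 difference was 0.35, 0.34 and 0.33 for these pairs. At least 4-fold differences were found in 4, 4 and 12 genes. By the 2-fold count, CA-p38 was thus further from AICAR 1 and nearer to AICAR 2 than the AICAR libraries were from each other. With a pseudocount of 2 CPM both of its counts (56 and 47) were above that of the AICAR pair (43). With library totals in place of TMM factors both (289 and 266) were below that of the AICAR pair (316).

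**Figure D1:**
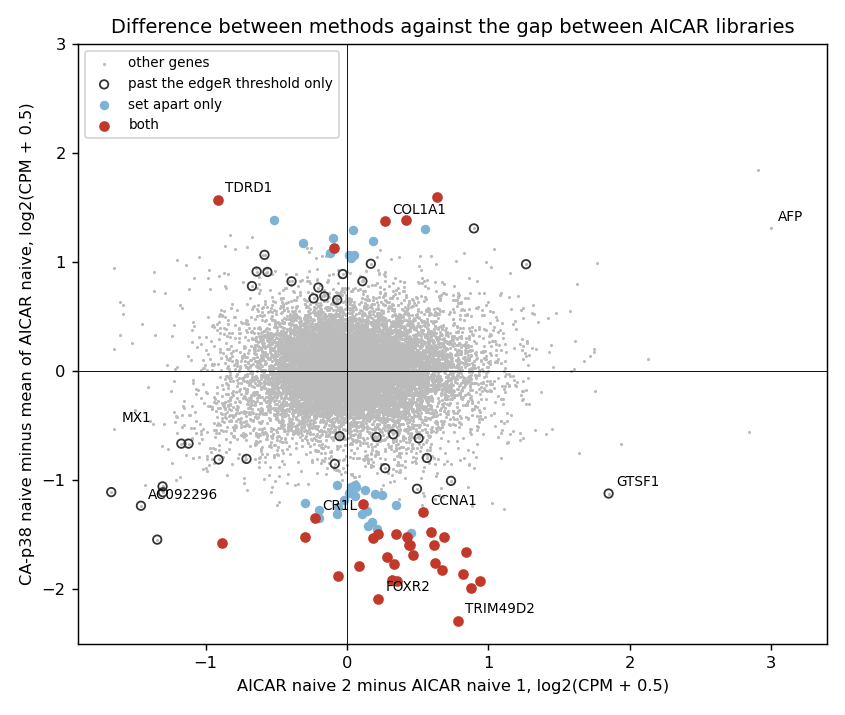
Each point is a gene averaging 1 CPM or more, with the gap between the AICAR libraries on the x axis and the difference between CA-p38 naive and the AICAR mean on the y axis, both on log2(CPM + 0.5). The 34 genes called both ways (red) lie far from 0 on the y axis, 29 of them below, while genes such as GTSF1 and AC092296 passed edgeR's threshold with an AICAR gap larger than their distance from the nearer library.

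Total counts ran from 46823699 to 54277064 in the 6 libraries, and 3 counts corresponded to between 0.0553 and 0.0641 CPM. The naive identity of the 3 libraries was alike. All 24 naive markers had a mean of at least 1 CPM, 0 of 24 were past the threshold or set apart, and their median log2 difference was -0.01. At an unadjusted p under 0.05, 2 of the markers were lower (against 2.52% of all genes). Their sum was 9138, 8877 and 8689 CPM in AICAR 1, AICAR 2 and CA-p38, against 69.2 and 86.2 CPM in the primed lines. Over the 18979 genes the median log2 difference was 0.01, and per chromosome it ran from -0.05 (X) to 0.06 (chromosome 15).

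MAPK14 encodes p38 alpha (GRCh38 chr6:36027782-36111236, plus strand). Its level was 51.7 CPM in AICAR 1, 41.0 in AICAR 2 and 55.4 in CA-p38, with 52.8 in VPA, 45.2 in EOS primed and 52.8 in CA-p38 primed cells. The CA-p38 naive library was the highest of the 3 by a small step and close to its own primed parent. The log2 fold change was 0.26 (SE 0.17), and the edgeR adjusted p was 0.99995. Whether reads of the vector's p38 were counted under MAPK14 is not stated in the sources used here.

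The rest of the p38 cascade showed no call. The 30 genes tested cover the p38 kinases, their activators MAP2K3 and MAP2K6, their targets and the phosphatases that switch them off. Of these, 0 were past the threshold and 2 had an unadjusted p under 0.05 (against 4.91% of all genes tested). The median log2 difference was 0.02. The lowest was DUSP8, a phosphatase acting on stress kinases, at 4.37 and 3.97 CPM in the AICAR libraries and 2.195 in CA-p38. The highest was DUSP1, an inducible phosphatase of p38, at 6.80 and 5.44 against 8.68 CPM. DUSP8 had an unadjusted p of 0.0288 by edgeR and DUSP1 of 0.103, and neither passed after adjustment.

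AMPK subunits and their upstream kinases likewise had 0 of 10 tested genes past the threshold, with a median of 0.06. At an unadjusted p under 0.05 there was 1 (against 4.91% of all genes tested). PRKAA1, the catalytic alpha 1 subunit, was at 32.8 and 32.5 CPM in AICAR cells and 33.1 in CA-p38 cells. PRKAB2, the beta 2 subunit, stood at 73.4 and 76.8 CPM against 97.8 in CA-p38, an unadjusted p of 0.0141 by edgeR. PRKAB2 lay outside the AICAR range, by less than the 2-fold of the rule. Of 21 genes linked to AMPK in metabolism and 24 of purine and adenosine handling that were tested, 0 passed, and their medians were 0.10 and 0.09. At an unadjusted p under 0.05 there were 0 of the first and 4 of the second, 3 higher and 1 lower (against 4.91% of all genes tested).

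ZSCAN4, a zinc finger protein of early embryonic genome activation (chr19:57668935-57679152, plus strand), was at 3.75 CPM in AICAR 1, 6.00 in AICAR 2 and 1.25 in CA-p38. These came from 205, 299 and 63 counts. Both AICAR libraries were at or above 3 times the CA-p38 value and the groups did not overlap. VPA cells were at 1.69 CPM and the primed lines at 0.0809 and 0.0207. The log2 fold change was -1.96 (SE 0.45), with an edgeR adjusted p of 0.00845.

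TRIM43 encodes a tripartite motif protein of the 8-cell stage (chr2:95592001-95599778, plus strand). It was at 10.2 and 14.3 CPM in the AICAR libraries and 3.42 in CA-p38, and no count of it was seen in either primed line. The log2 fold change was -1.84 (SE 0.31, edgeR adjusted p = 1.38e-05). Its neighbour TRIM43B, at 12.9 and 17.5 against 4.91 CPM, had a log2 fold change of -1.63 (SE 0.29, edgeR adjusted p = 3.46e-05). In both genes CA-p38 lay near VPA, which was at 3.25 CPM for TRIM43 and 3.42 for TRIM43B.

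CCNA1, cyclin A1 (chr13:36431520-36442870, plus strand), was at 25.8 and 37.7 CPM in AICAR cells and 12.4 in CA-p38 cells. VPA cells were at 11.5 CPM and both primed lines below 1. The fold change of CCNA1 on the log2 scale was -1.35 (SE 0.22, edgeR adjusted p = 5.43e-06), from 1410, 1878 and 627 counts. It is not part of a near-identical family, so reads were not shared between copies.

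SLC34A2, a sodium-dependent phosphate transporter, was at 10.7 and 16.5 CPM against 4.47 (log2 fold change -1.60, SE 0.30, edgeR adjusted p = 0.000102). KDM4E, a histone lysine demethylase, was at 2.89 and 4.92 CPM against 0.712 (-2.45, SE 0.51, edgeR adjusted p = 0.00154). H3Y1, a primate histone H3 variant, was at 5.30 and 8.83 CPM against 2.06 (-1.78, SE 0.38, edgeR adjusted p = 0.00321). In each of the 3 the CA-p38 value was below both AICAR values by more than the AICAR gap. SLC34A2 differed from the others in being above 1 CPM in both primed lines.

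The multi-copy families were lower as sums. Their members are near-identical, alignments of low mapping quality were dropped, and the split of reads between members is uncertain, so sums are the safer measure. The 5 TRIM49 genes summed to 34.7 CPM in AICAR 1, 47.7 in AICAR 2 and 10.98 in CA-p38. All 5 were set apart and past the threshold, TRIM49D2 and TRIM49D1 with the lowest log2 fold changes of -2.97 (SE 0.47) and -2.27 (SE 0.37), at edgeR adjusted p of 2.71e-06 and 7.83e-06.

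MBD3L2, MBD3L2B, MBD3L3, MBD3L4 and MBD3L5, relatives of a methyl-CpG-binding protein in a cluster on chromosome 19, summed to 19.9 and 25.02 CPM against 4.91. All 5 were set apart and 3 were past the threshold, MBD3L2B with a log2 fold change of -2.23 (SE 0.39, edgeR adjusted p = 3.66e-05). The 3 TRIM53 pseudogenes summed to 23.1 and 32.8 CPM against 7.04. The fall in sums was thus between 2.897-fold and 5.10-fold for the TRIM43, TRIM49, TRIM53 and MBD3L families, counted from either AICAR library. In all 4 families the VPA sum was at or below the CA-p38 sum, from 4.18 CPM for the MBD3L genes to 10.9 CPM for TRIM49.

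**Figure D2:**
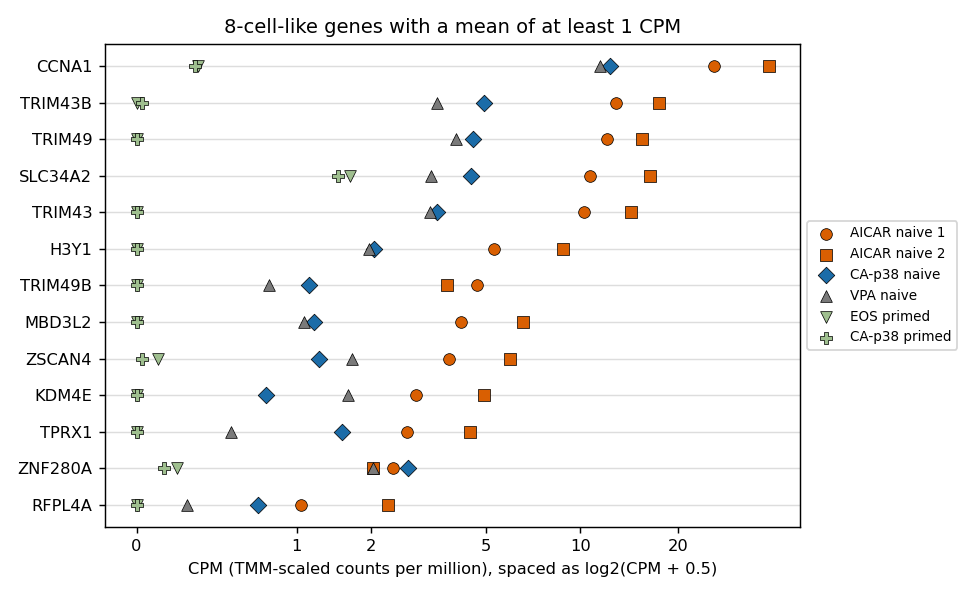
Levels of the 13 members of the 8-cell-like list with a mean of at least 1 CPM in each of the 6 libraries, in CPM on an axis spaced as log2(CPM + 0.5). The CA-p38 naive library (blue) lies below both AICAR libraries (orange) in 12 of 13 genes, close to the VPA library in most, and the primed lines (green) lie near 0 except for SLC34A2.

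The homeobox members DUX4, DUXA and LEUTX had low levels. DUX4 was at 0.677 and 1.14 CPM in AICAR and 0.455 in CA-p38 cells. DUXA, a homeobox factor of the same wave, was at 0.238 and 0.843 against 0.0989 CPM. LEUTX, a paired-like homeobox factor of the 8-cell stage, was at 0.201 and 0.803 against 0.198 CPM. The CA-p38 library was the lowest for DUX4 and DUXA and level with AICAR 1 for LEUTX, and none of the 3 passed (edgeR adjusted p = 0.99995).

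TPRX1, another homeobox factor of this wave, was at 2.69 and 4.43 CPM against 1.54 (edgeR adjusted p = 0.608). ZNF280A was the 1 tested member with a fold change above 0, at 2.40 and 2.03 CPM against 2.71. The list median was -1.52 on log2(CPM + 0.5) over 13 members and -1.63 in edgeR over 21 members, against 0.01 and -0.02 over all genes. With both primed libraries as 1 group and 1 AICAR library left out, the edgeR median was -1.88 without AICAR 1 and -1.37 without AICAR 2. The direction thus held with either library. The number past the threshold in that kind of fit was already 0 with both AICAR libraries. AICAR 2 was above AICAR 1 in 11 of the 13 members (against 47.7% of all genes averaging 1 CPM or more), a gap with a median of 0.59.

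Of the 51 genes set apart and lower, 24 belonged to the list or to the TRIM, MBD3L, TAF11L and H3Y families, and 27 did not. By type, 33 were protein-coding, 12 pseudogenes and 6 long non-coding RNAs. In 41 of them both primed lines were below 1 CPM. VPA naive cells, which the rule did not use, were below both AICAR libraries in 50 of the 51 (98.0%), against 35.8% of all genes. The genes had been chosen for high AICAR values, which favours a lower value in any other library, so the share is given as a description.

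CR1L, a complement receptor 1-like gene, was the exception. It was at 14.5 and 12.3 CPM in the AICAR libraries, 4.94 in CA-p38 and 17.2 in VPA cells, so CA-p38 stood alone among the naive libraries. Its log2 fold change was -1.43 (SE 0.29, edgeR adjusted p = 0.00106), and both primed lines were near 0, at 0.101 and 0.0414 CPM.

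PLXNB3, a plexin receptor for semaphorins on the X chromosome, was at 25.9 and 28.1 CPM against 11.3 (log2 fold change -1.26, SE 0.23, edgeR adjusted p = 7.34e-05). The gene overlaps SRPK3, a muscle-type SR protein kinase, at 11.3 and 10.8 CPM against 5.10. SRPK3 was set apart but did not pass (edgeR adjusted p = 0.0796), and reads of the overlap cannot be told apart. Both had a tight AICAR gap, and VPA was close to CA-p38, at 11.1 and 5.35 CPM.

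Some of the largest falls were in genes near 2 CPM, named here after their values were seen. FOXR2, a forkhead factor, was at 2.01 and 2.43 CPM against 0.138, or 110, 121 and 7 counts (log2 fold change -3.98, SE 0.73, edgeR adjusted p = 9.27e-05). DIO2, the deiodinase that activates thyroid hormone, was at 1.45 and 1.95 against 0.138 CPM (-3.59, SE 0.78, edgeR adjusted p = 0.00331). VPA was between the 2 methods in both, at 1.42 CPM for FOXR2 and 0.930 for DIO2.

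Of the trophectoderm list, 0 of 17 tested genes were past the threshold. Of its 15 members averaging 1 CPM or more, 2 were set apart and lower (against 0.269% of all such genes). GATA3, a transcription factor of trophectoderm, was at 2.43 and 2.31 CPM in the AICAR libraries against 0.712, with 0.380 in VPA cells (edgeR adjusted p = 0.327). HAVCR1, a surface receptor, was at 2.10 and 1.77 CPM against 0.455 (edgeR adjusted p = 0.219). The list median was -0.41, and 5 of 17 had an unadjusted p under 0.05 and were lower (against 2.52% of all genes). Among those, the keratins KRT8, at 276 and 292 against 214 CPM, and KRT18, at 132 and 136 against 98.7 CPM, lay below both AICAR libraries without reaching 2-fold. KRT7 went the other way, at 4.68 and 5.02 against 9.28 CPM.

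Replication-dependent histone genes, whose mRNAs mostly lack a poly(A) tail, had a median of -0.76 over 6 members above 1 CPM. H1-2, a linker histone, was set apart at 3.20 and 3.35 CPM against 1.21, and did not pass (edgeR adjusted p = 0.384). All 6 were lower in CA-p38 than the AICAR mean, and 11 of the 13 tested had an edgeR fold change below 0 (against 52.8% of all genes tested). Metallothioneins, small metal-binding proteins, had a median of -0.28, and 0 of 9 tested passed. At an unadjusted p under 0.05, 3 were lower (against 2.52% of all genes) and 0 higher. Between the primed lines (CA-p38 minus EOS) their median was -0.68, in the same direction.

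The fibrillar collagen genes did not move together. COL1A1 and COL3A1 were higher in CA-p38, COL5A2 was lower and COL1A2 lay within the AICAR range. COL1A1 (chr17:50184101-50201632, minus strand) was at 9.48 CPM in AICAR 1, 11.5 in AICAR 2 and 27.97 in CA-p38. The log2 fold change was 1.41 (SE 0.22, edgeR adjusted p = 2.71e-06). COL3A1 (chr2:188974373-189012746, plus strand) was at 5.14 and 7.02 against 16.6 CPM (1.45, SE 0.27, edgeR adjusted p = 0.000134). CA-p38 was above both AICAR libraries and VPA, which was at 10.99 and 3.55 CPM. In the primed lines COL1A1 was at 60.0 and 60.4 CPM and COL3A1 at 4.75 and 2.21. COL5A2, the alpha 2 chain of type V collagen, was at 90.7 and 129 against 70.5 CPM (-0.64, SE 0.16, edgeR adjusted p = 0.0313), and VPA was lower still at 62.2.

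COL1A1 and COL3A1 stand on the list of fibroblast genes, drawn up because the labels place naive cells on mouse feeders, whose reads can map to human transcripts. Of 13 members tested, 2 (these collagens) were past the threshold and higher (against 0.0632% of all genes tested). At an unadjusted p under 0.05, 4 were higher (against 2.39% of all genes) and 0 lower, and the list median was 0.24. The list summed to 164 and 187 CPM in the AICAR libraries against 213, with 159 in VPA cells, and to 567 and 674 in primed cells. DCN, decorin, was at 0.805 and 1.16 against 1.21 CPM, and PDGFRB was at 0.110 and 0.181 against 0.0989 CPM. LUM, lumican, was at 0.311 and 0 against 1.17 CPM. COL1A2, the partner chain of COL1A1, was at 14.9 and 30.4 against 25.7 CPM, within the AICAR range. The part of feeder reads in the collagen difference was not tested.

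TDRD1, a Tudor domain protein of the piRNA pathway in the germline, was at 2.07 and 0.863 CPM in AICAR and 5.06 in CA-p38 cells. VPA cells were at 4.39 CPM, close to CA-p38. Its log2 fold change was 1.78 (SE 0.43, edgeR adjusted p = 0.0193). Of 17 germline and cancer-testis genes tested, TDRD1 was the 1 past the threshold (against 0.0632% of all genes past and higher), and the median was 0.20. AHNAK2, a large scaffold protein, was at 4.66 and 4.35 against 10.4 CPM (1.21, SE 0.31, edgeR adjusted p = 0.0497), and VPA lay between at 6.46. With library totals in place of TMM factors AHNAK2 did not pass (edgeR adjusted p = 0.113).

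Other genes passed edgeR's threshold in either direction with smaller steps, too small for the fold rule. They are named after their values were seen. VCAN, the matrix proteoglycan versican, was at 66.5 and 65.2 CPM in AICAR and 123 in CA-p38 (log2 fold change 0.90, SE 0.15, edgeR adjusted p = 1.53e-05). STAG3, the meiotic cohesin subunit, was at 39.7 and 26.7 against 61.6 CPM (0.89, SE 0.17, edgeR adjusted p = 0.0004). TKTL1, a transketolase-like protein, was at 18.3 and 12.1 against 31.7 CPM (1.06, SE 0.21, edgeR adjusted p = 0.000561). In all 3 VPA lay nearer to the AICAR libraries, at 75.4, 41.9 and 18.9 CPM.

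Lower in CA-p38 by such steps was BASP1, a membrane-associated protein of neuronal growth cones, at 224 and 260 against 159 CPM (log2 fold change -0.61, SE 0.15, edgeR adjusted p = 0.0251). ADAM19, a metalloprotease, was at 21.4 and 25.96 against 12.5 CPM (-0.92, SE 0.23, edgeR adjusted p = 0.0306). TFPI2, a secreted protease inhibitor, was at 11.9 and 17.0 against 6.47 CPM (-1.16, SE 0.28, edgeR adjusted p = 0.019). ATG9B and S100A13 also passed and were lower. VPA lay between CA-p38 and AICAR 1 for BASP1, ADAM19 and TFPI2, at 174, 18.8 and 9.53 CPM.

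**Figure D3:**
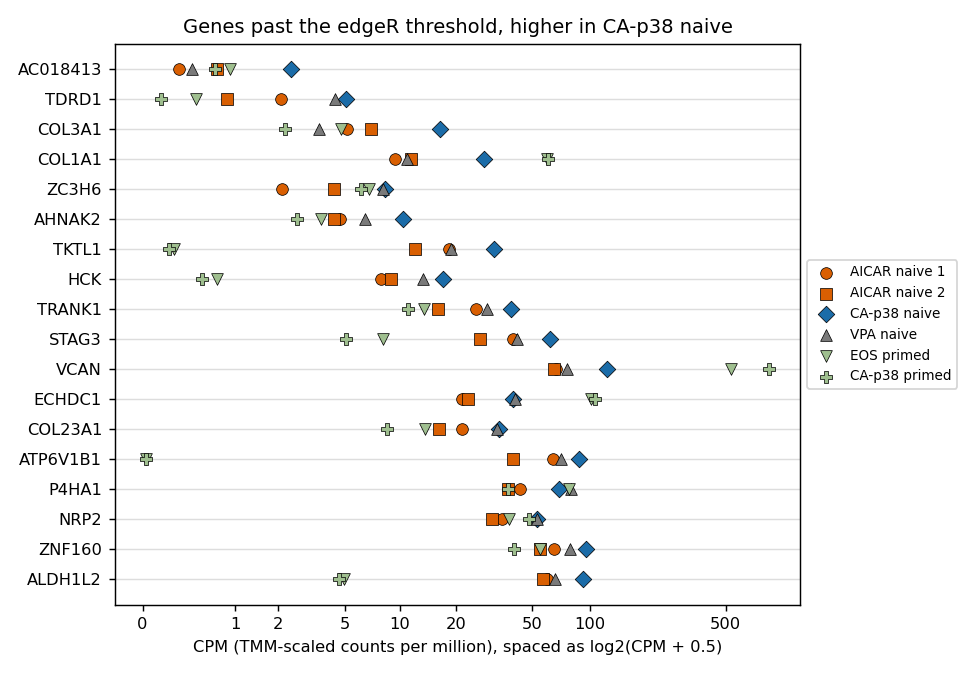
Levels of the genes with a chromosomal position that were past edgeR's threshold and higher in CA-p38 naive, in each of the 6 libraries, in CPM on an axis spaced as log2(CPM + 0.5). CA-p38 (blue) is above both AICAR libraries (orange) in every gene shown. The primed lines (green) are far above the naive ones in VCAN and near 0 in ATP6V1B1.

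Of 28 hypoxia-responsive genes tested, 6 had a fold change below 0 and the rest above, while 52.8% of all genes tested were below 0. By edgeR 1 was past the threshold and higher (against 0.0632% of all genes tested). That count was 0 with DESeq2, and 0 with all 6 libraries and the primed ones pooled. At an unadjusted p under 0.05 by edgeR, 10 were higher (against 2.39% of all genes) and 1 was lower. The median log2 difference was 0.33. P4HA1, a collagen prolyl hydroxylase subunit, was at 43.2 and 37.5 CPM in AICAR and 68.8 in CA-p38 cells (log2 fold change 0.77, SE 0.17, edgeR adjusted p = 0.00404). VPA was higher still, at 79.9 CPM.

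LDHA, lactate dehydrogenase A, was at 156 and 127 CPM against 201, with 257 in VPA cells. EGLN1, an oxygen-sensing prolyl hydroxylase, was at 8.10 and 7.86 against 13.4 CPM. EGLN3, of the same family, went down, at 67.5 and 62.8 against 46.6 CPM. None of these 3 passed after adjustment. The list summed to 1811 and 1656 CPM in the AICAR libraries against 2072, with 2383 in VPA cells. In the primed cells the CA-p38 line was the lower, with 2262 against 3943 CPM, so the parental lines differed in the opposite direction.

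**Figure D4:**
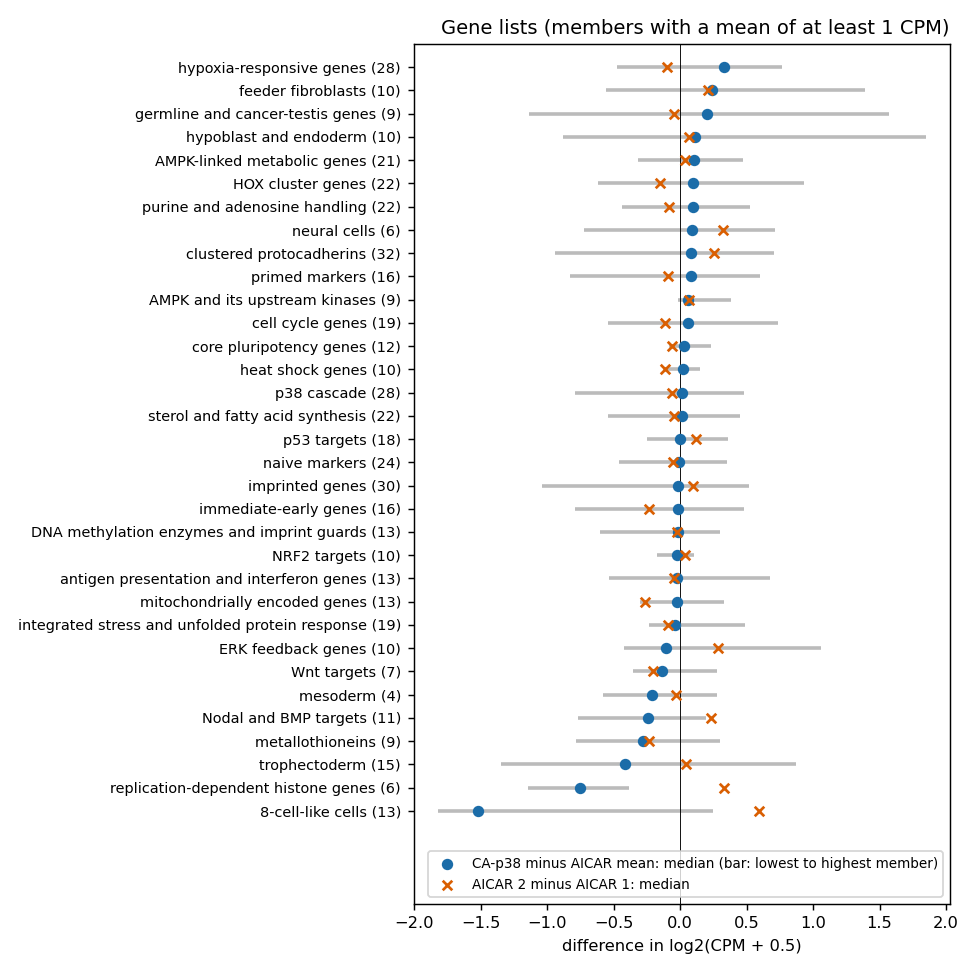
For each of the 33 gene lists, the median difference between CA-p38 naive and the AICAR mean (blue dot), the range over members with a mean of at least 1 CPM (grey bar, number of members in brackets) and the median gap between the AICAR libraries (orange cross), on log2(CPM + 0.5). The 8-cell-like list, at -1.52, lies lowest, followed by replication-dependent histone genes at -0.76, and hypoxia-responsive genes, at 0.33, have the highest median.

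In 27 of the 33 lists no member was past the threshold or set apart, and the medians of those lists ran from -0.28 to 0.11. DESeq2 also called 0 members of these lists, and limma-voom called 2 (both of hypoblast and endoderm, AFP and APOB). By edgeR 0 to 4 members per list had an unadjusted p under 0.05. In some short lists that share was above the 4.91% of all genes tested. Among these were metallothioneins (3 of 9, all lower) and Nodal and BMP targets (3 of 13, all lower, median -0.24). Mitochondrially encoded genes (3 of 13) and hypoblast and endoderm genes (3 of 16) each had 2 higher and 1 lower. The 27 lists also covered core pluripotency genes (median 0.03), primed markers (0.08), imprinted genes (-0.01), DNA methylation enzymes (-0.01), heat shock genes (0.02), p53 targets (-0.00413) and sterol synthesis (0.01).

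Few of the genes set apart also differed between the parental lines, and for many a difference could not have shown. Of the 51 set apart and lower, both primed lines were below 1 CPM in 41. In 25 of those neither had more than 3 counts, where log2(CPM + 0.5) leaves no room for a 2-fold difference. Between CA-p38 primed and EOS primed, 274 of the 18979 genes (1.44%) differed at least 2-fold. Of the 66 genes set apart, 1 differed that way in the same direction and 1 in the other. The first was CYP26A1, which degrades retinoic acid, at 0.457 and 0.903 CPM in AICAR, 2.35 in CA-p38, 4.81 in EOS primed and 10.5 in CA-p38 primed cells. It did not pass (edgeR adjusted p = 0.280). The other was GATA3, lower in CA-p38 among naive cells, and at 0.162 CPM in EOS primed against 1.47 in CA-p38 primed cells.

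Among the 69 genes past edgeR's threshold, 7 differed at least 2-fold between the parental lines (against 1.44% of all genes averaging 1 CPM or more). In 4 the direction was the same, and in GTSF1, P4HA1 and MAP1A it was the other. SLC25A20, the mitochondrial carnitine-acylcarnitine carrier (chr3:48856926-48898904, minus strand), had the largest difference between parental lines in the same direction, and is named after its values were seen. It was at 57.0 and 53.7 CPM in AICAR 1 and AICAR 2, 61.9 in VPA and 59.4 in EOS primed cells, all of which derive from the EOS line. It was at 30.5 CPM in CA-p38 naive and 7.47 in CA-p38 primed cells. The 4 libraries of the EOS line lay together and both of the CA-p38 line lay below. The log2 fold change between naive cells was -0.86 (SE 0.18, edgeR adjusted p = 0.00225), and the difference between parental lines was -2.91.

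The other 3 in the same direction were the mitochondrial ribosomal RNA MT-RNR1 and the pseudogenes MTCO2P12 and MTCO3P12, which resemble mitochondrial genes. MT-RNR1 was at 72.0 CPM in AICAR 1, 32.9 in AICAR 2 and 30.5 in CA-p38 cells. AICAR 2 and CA-p38 were alike here, and AICAR 1 was high. MTCO2P12, at 28.7, 11.3 and 8.43 CPM, and MTCO3P12, at 45.8, 20.04 and 18.9 CPM, had the same order.

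**Figure D5:**
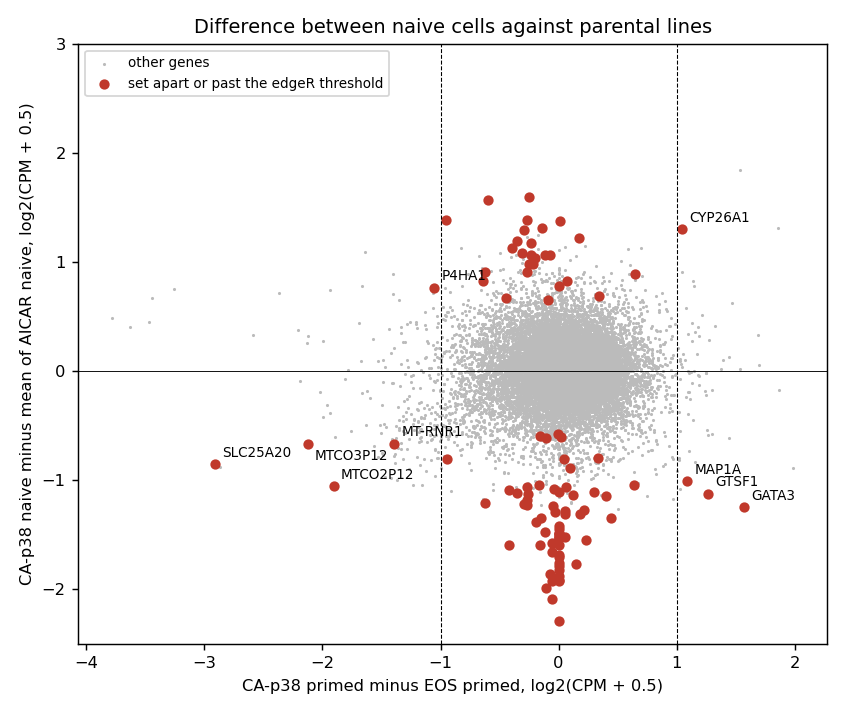
Each point is a gene averaging 1 CPM or more, with the difference between the parental primed lines (CA-p38 minus EOS) on the x axis and that between CA-p38 naive and the AICAR mean on the y axis, both on log2(CPM + 0.5), and with dashed lines at 2-fold between the parental lines. Nearly all called genes (red) lie between the dashed lines. Many of them were near 0 CPM in both primed lines, where a 2-fold difference cannot show on this scale. SLC25A20, at -2.91 and -0.85, lies furthest to the left of the called genes.

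The AICAR libraries themselves differed in named genes, and 19 of the 69 genes past edgeR's threshold had an AICAR gap at least as large as the distance of CA-p38 from the nearer library. MX1, an interferon-induced GTPase, was at 31.8 CPM in AICAR 1, 9.81 in AICAR 2 and 12.1 in CA-p38. GTSF1, a gametocyte factor of the piRNA pathway, was at 4.15 and 16.3 CPM against 3.56, with 18.6 in VPA cells. AFP, alpha-fetoprotein, was at 0.201 and 5.12 CPM against 4.43. For MX1 and AFP the CA-p38 value lay within the AICAR range, and for GTSF1 it lay just below AICAR 1.

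AC092296, a long non-coding RNA on chromosome 19, showed the same limit. It was at 73.7 and 26.5 CPM in AICAR and 18.5 in CA-p38 cells, and had an edgeR adjusted p of 6.04e-09. The distance from AICAR 2 to CA-p38 was smaller than that between the AICAR libraries, and the fold rule did not set it apart. Other genes with a wide AICAR gap were PIMREG at 7.68 and 2.23 CPM, AC112907 at 5.62 and 1.89, FAM214A at 2.10 and 8.27, and WLS at 1.30 and 5.42. In these 4 genes the CA-p38 value fell between the AICAR values.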

How the data were processed

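The counts deposited by the authors are whole numbers per Ensembl gene identifier for 6 bulk libraries (AICAR naive 2, CA-p38 naive, VPA naive, EOS primed and CA-p38 primed 1 each). Polyadenylated RNA went through the SMART-Seq Stranded kit, adapters were trimmed with cutadapt 1.15 and Trim Galore 0.4.4, and reads were mapped with Bowtie2 to Ensembl release 100 cDNA and non-coding RNA on GRCh38. Alignments of mapping quality of at least 1 were counted, which affects near-identical genes, and use of strand is not stated. The 23 columns of other studies were not used, and 26 spike-in rows were left out. Of 61196 identifiers, 56154 lie on chromosomes in GENCODE release 44, and 6932 symbols have 2 or more identifiers, tested apart.

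edgeR 4.0.16 in R 4.3.3 (glmQLFit, glmQLFTest, TMM over 6 libraries) was fitted to the 3 libraries with 1 residual degree of freedom and a common dispersion of 0.0660. The SE is the fold change over the root of the F statistic. On simulated data it recovered 49% of 2-fold and 89% of 4-fold changes among 200 changed genes, with 9 false calls among 28873 genes. The changed genes were drawn above a minimum count. All 3 libraries were given the spread estimated from these data as a trend over expression level. The simulation therefore does not cover low genes, genes off that trend, or a CA-p38 library that varies more than the AICAR ones. Fold changes of the fold rule are on log2(CPM + 0.5), which understates low genes. DESeq2 1.42.0 and limma 3.58.1 were alternatives. A test of the difference between line differences (naive against primed) used edgeR on all 6 libraries.

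The genes named were MAPK14 and up to 12 highest and 12 lowest of those called both ways with 5 CPM, of which fewer were found each way. Up to 6 each way were to come from those also past edgeR's threshold and differing between parental lines (none was found). Added to these were 4 each way by AICAR gap and up to 5 called members per list. Others were named after their values were seen, among them COL5A2, CYP26A1, DUX4, DUXA, LEUTX, TPRX1 and MT-RNR1. For some lists without a call, extreme members or those of an unadjusted p under 0.05 are named by value. For others no member is named. The comparison and the lists were chosen with earlier results of these data known. The sample label and the text differ on the cell line. Promoter sequences are RefSeq's, on GRCh38.p14.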

Additional observations from a re-analysis of the deposited data

Results flagged for a closer look

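The difference between the CA-p38 and EOS lines was itself different in naive and in primed libraries for 88 genes (63 higher and 25 lower in naive cells relative to primed) by edgeR's test of the interaction, with Benjamini-Hochberg adjusted p over 30043 genes. With 1 primed library per line, the primed part has no replicate. Among the genes named by rule, the log2 difference of the differences was 1.40 for COL1A1 (adjusted p = 0.0184), 2.55 for COL3A1 (adjusted p = 0.0126) and 1.83 for P4HA1 (adjusted p = 2.10e-05). It was -4.90 for GATA3 (adjusted p = 0.0115) and -3.42 for GTSF1 (adjusted p = 0.0159), whose AICAR libraries were far apart. P4HA1 was higher in CA-p38 than AICAR naive cells and lower in the CA-p38 than the EOS primed line, at 37.4 against 78.1 CPM. GATA3 had the opposite order. Of the 8-cell-like list, 0 of 21 genes were past the threshold in this test and 2 had an unadjusted p under 0.05, and most of its members had no count in the primed lines.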

How the results depend on the processing

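The counts of genes past edgeR's threshold (19 higher and 50 lower in CA-p38, 11 of the 8-cell-like list) kept within 1.5 times with library totals, median-ratio factors and identifiers summed by symbol. They were 3, 21 and 7 with DESeq2's Wald test, and 21 lower and 5 of the list with limma-voom. With all 6 libraries in 5 groups they were 8, 12 and 1, and with both primed libraries as 1 group 0, 0 and 0. With the parental difference subtracted they were 63, 25 and 0. Most members of the 8-cell-like list had no count in the primed lines, so the test with that subtraction could hardly call them. With at least 10 counts in each library the counts past the threshold were 3, 14 and 5, and without a filter 12 were higher. The fits without AICAR replicate 1 or 2 also took both primed libraries as 1 group, where these counts were already 0 with both AICAR libraries. They therefore do not show what leaving 1 library out does to the counts. The list median kept its direction under every alternative run, between -1.88 and -1.37.

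The fold rule (15 higher, 51 lower) gave 165 and 236 at 1.5-fold, 0 and 0 at 4-fold, 2 and 13 with a pseudocount of 2 CPM, 4 and 16 at a mean of at least 5 CPM, and 35 higher without a filter. Without 1 AICAR library it gave 80 to 115 higher and 152 to 164 lower. Genes differing the same way between parental lines were 2 at 1.5-fold and 0 with a pseudocount of 2 or library totals. Genes 2-fold apart between AICAR libraries, CA-p38 and AICAR 1, and CA-p38 and AICAR 2 were 43, 56 and 47 with that pseudocount and 52, 66 and 48 at 5 CPM. With library totals they were 316, 289 and 266. Chromosome medians moved by under 0.1 in every alternative.

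Of 31 genes named by rule, the 21 past the threshold lost it with primed libraries pooled. The fits without either AICAR library pooled them too. Log2 fold changes without AICAR 1 and without AICAR 2 had opposite signs in 6 of the 31, at 0.30 and -1.39 for MX1, -0.21 and 4.44 for AFP, 1.497 and -0.29 for PIMREG, 1.19 and -0.39 for AC112907, -0.81 and 1.25 for WLS, and -0.76 and 1.21 for FAM214A. No paired analysis was possible because CA-p38 naive has 1 library, so the groups share fewer than 2 replicate numbers.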
